A study of Homo sapiens with 8 samples.

Results

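The 4 control siRNA libraries of MiaPaCa-2 cells, out of 8 libraries in the series, were described across all genes. They were chosen by their labels: the cell line MiaPaCa-2, described as a pancreatic cancer cell, with genotype WT and a control siRNA named SCR siRNA, at 48 h. The other 4 libraries of the series, which received an siRNA against BARD1, were not used, and no comparison with them was made. RNA was purified by its poly-A tail, and all cells described received an siRNA, so the levels are those of siRNA-treated and not of untouched cells. The labels number the control libraries 1 to 4 without saying whether they came from separate cultures, so the spread between them may be technical. BARD1, the gene targeted in the other cells, had 13.4, 13.7, 13.1 and 10.6 TPM (transcripts scaled by gene length and library total) in control libraries 1 to 4, lowest in library 4.

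MiaPaCa-2 is an established human line derived from a pancreatic ductal adenocarcinoma. Such tumours arise in the exocrine pancreas, often with loss of CDKN2A and SMAD4. The line is known to carry a homozygous deletion of CDKN2A and to grow with a poorly differentiated, partly mesenchymal appearance. Primary tumours and cell lines of this disease are commonly sorted by expression into a classical, gland-like state and a basal-like or quasimesenchymal state.

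Levels are given in TPM, computed from the deposited counts and gene lengths, so that they can be compared between genes per length, as mean ± SD over 4 libraries. With 1 group of 4 libraries no test between groups was made and no p is given. Genes are placed in order only where their ranges over the 4 libraries do not overlap. A gene is called expressed at a mean of at least 1 TPM and silent at 3 or fewer counts in each of the 4 libraries. Total gene counts were 24674341, 24458665, 32627983 and 29743948, so that 3 counts were worth 0.0920 to 0.123 CPM (counts scaled to the library total). Such floors cover counting error only.

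Library 4 stood apart from the others. Over all listed genes the Pearson correlation of log2(TPM + 1) was 0.990 to 0.991 among libraries 1 to 3 and 0.985 to 0.986 between library 4 and each of them, as a description across genes of one cell line. Of the genes at or above 1 TPM in both libraries of a pair, 2.06% to 2.52% differed by more than 2-fold among libraries 1 to 3 and 6.39% to 7.23% in pairs with library 4. No pair agreed within sampling noise. The median coefficient of variation of the 6447 protein-coding genes with at least 20 TPM was 8.59% over all 4 libraries and 4.56% over libraries 1 to 3. Library 4 lay farthest from the median in 64.6% of them.

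The table named 25945 genes, all of which had a read somewhere among the 8 libraries, so counts of silent genes cover listed genes only. Of these, 13606 were at or above 1 TPM on average (52.4%), and 11340 of the 16115 listed protein-coding genes were (70.4%). Libraries 1, 2 and 3 had 13450, 13475 and 13463 such genes and library 4 had 14276. Expressed protein-coding genes had a median of 25.6 TPM. Protein-coding genes held 97.6% of all TPM, and 432 of 1807 listed lincRNA genes, 595 of 2399 antisense genes and 774 of 4083 pseudogenes reached 1 TPM.

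The transcriptome was concentrated in few genes. The 25 highest genes held 15% of all TPM, 70 genes held 25% and 504 genes held 50%. Of all genes 8609 genes were at or above 10 TPM and together held 97.8%. Only 114 genes reached 1000 TPM, and they held 30.6%. Library 4 had at least 1 read in 20314 genes and libraries 1 to 3 in 18092 to 18851 genes. The spread between libraries was wider at low levels: the median coefficient of variation was 29.0% for protein-coding genes at 1 to 5 TPM, 13.7% at 5 to 20 TPM, 8.93% at 20 to 100 TPM and 7.77% above.

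**Figure D1:**
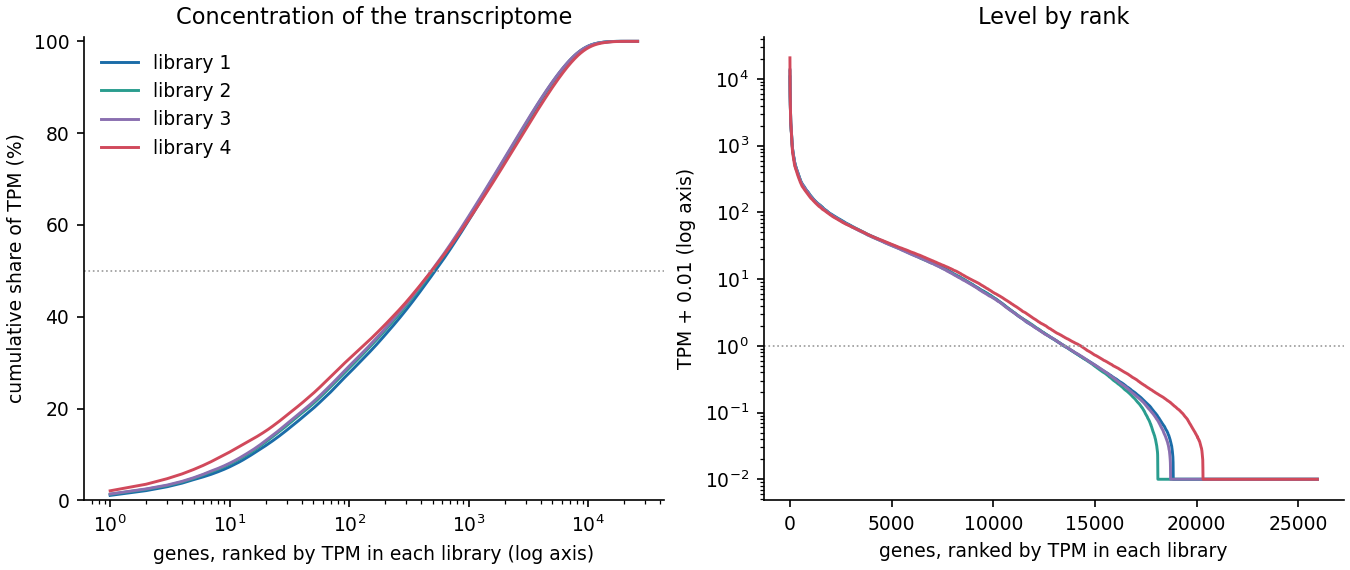
Cumulative share of TPM (%) over genes ranked by TPM on a log axis (left) and TPM + 0.01 on a log axis over gene rank (right), 1 line per control siRNA library. The dotted lines mark 50% of TPM and 1 TPM. The 4 curves cross 50% near the 504 genes found for the mean, and the curve of library 4 lies above the others among low genes.

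Mitochondrially encoded genes were among the highest by mean, with ranges that overlapped those of nuclear genes. MT-CO2, a subunit of cytochrome c oxidase, had 10408, 13187, 13712 and 20762 TPM in libraries 1 to 4, a mean of 14518 ± 4408 TPM. It was the highest gene in libraries 2 to 4, and ACTB stood above it in library 1. MT-CO1 averaged 9090 ± 3730 TPM and MT-CO3 averaged 7737 ± 2979 TPM (SD, n = 4 each). Library 4 was the highest and library 1 the lowest for each of these genes. The place of MT-CO1 and MT-CO3 depended on library 4. In libraries 1 to 3 ACTB stood above MT-CO1. Without library 4 MT-CO1 averaged 7328 TPM and MT-CO3 6296 TPM, against 10943 TPM for ACTB and 8198 TPM for FTL. The 13 mitochondrial genes took 1.43%, 1.88%, 2.02% and 3.26% of counts in libraries 1 to 4. The Wilson 95% intervals, which cover counting error only, were 1.42% to 1.43%, 1.88% to 1.89%, 2.02% to 2.03% and 3.25% to 3.26%, so the libraries differed far beyond counting error. In TPM they held 6.06% ± 2.02 (SD, n = 4).

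Among nuclear genes the highest encode cytoskeleton, ferritin, translation factors, glycolytic enzymes and chaperones. ACTB, cytoplasmic actin, had 10772, 10903, 11154 and 10395 TPM and was above every other nuclear gene in each library. FTL, the light chain of the iron store ferritin, followed at 8563 ± 755 TPM, its range overlapping that of the translation elongation factor EEF1A1 at 7795 ± 333 TPM. The actin-sequestering thymosins TMSB10 and TMSB4X averaged 7013 ± 1535 and 5878 ± 307 TPM (SD, n = 4 each). TMSB10 was 7663, 7786 and 7888 TPM in libraries 1 to 3 and 4714 TPM in library 4. The nucleolar chaperone NPM1 averaged 5066 ± 765 TPM, and the chaperone genes HSP90AA1, HSP90AB1 and HSPA8 averaged 4746, 4628 and 3423 TPM. All 4 of these chaperone genes were lowest in library 4.

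GAPDH, a glycolytic enzyme often used as a standard, was among the most even of these genes, with 5590, 5683, 5765 and 5587 TPM. ENO1 averaged 4474 ± 405 TPM, PKM 2904 ± 136, ALDOA 2050 ± 26.9 and LDHA 1559 ± 64.1 TPM (SD, n = 4 each). GAPDH ranked 10 and LDHA, the lowest of these enzymes, ranked 73 among all genes. The metallothioneins MT2A and MT1E, small metal-binding proteins, averaged 3399 ± 251 and 1702 ± 153 TPM. The calcium-binding proteins S100A11, S100A6 and S100A4 averaged 2943, 1954 and 1621 TPM. S100A4 was 2327 TPM in library 4 and 1360 to 1409 TPM in the others.

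Genes for the proteins of the cytosolic ribosome held a large and even share of the transcriptome. The 83 genes listed under such names held 9.73% ± 0.0444 (SD, n = 4) of all TPM. Of these genes 80 reached 1 TPM, against 70.4% of listed protein-coding genes, with a median of 974.7 TPM against 10.8 TPM over listed protein-coding genes. RPL8 was the highest at 4902 ± 184 TPM, followed by RPL7A at 3930 ± 54.0 TPM. Among those below 1 TPM were RPL3L, a muscle paralogue and a second gene that bears the name RPL26. Ribosomal protein genes have many near-identical copies in the genome, so counts of single members are uncertain.

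Messages of the translation machinery typically begin with a C followed by pyrimidines, the 5′ terminal oligopyrimidine tract through which mTOR signalling controls their translation. Core promoters of 5 genes of the translation machinery and ribosome assembly and, beside them, of 2 other abundant genes are shown for the letters at the start. The sequences are from RefSeq on build GRCh38.p14, 40 bases before to 20 bases from the annotated start, on the strand of the gene. Capitals mark 4 pyrimidine words near the start (the word CTTTC, the similar word CTTTT, the variant with CTCTT and the last, CTTCC) and the TATA word TATAAA upstream.
EEF1A1, chr6:73521013-73521072, minus strand: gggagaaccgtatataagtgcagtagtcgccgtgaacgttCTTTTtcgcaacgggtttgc
RPS6, chr9:19380217-19380276, minus strand: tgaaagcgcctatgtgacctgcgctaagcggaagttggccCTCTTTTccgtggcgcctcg
RPL7A, chr9:133348178-133348237, plus strand: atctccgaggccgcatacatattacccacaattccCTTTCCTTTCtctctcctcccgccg
EEF2, chr19:3985444-3985503, minus strand: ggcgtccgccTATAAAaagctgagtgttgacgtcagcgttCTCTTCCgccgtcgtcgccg
NPM1, chr5:171387809-171387868, plus strand: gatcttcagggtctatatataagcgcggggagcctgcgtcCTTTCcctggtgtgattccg
GAPDH, chr12:6535224-6535283, plus strand: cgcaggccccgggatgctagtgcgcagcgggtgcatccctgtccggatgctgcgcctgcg
FTL, chr19:48965269-48965328, plus strand: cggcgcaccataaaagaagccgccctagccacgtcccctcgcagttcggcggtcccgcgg

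At least 1 of the 4 pyrimidine words, which can overlap one another, lay on the gene strand within 10 bases before to 15 bases after the start in 49 of 67 ribosomal protein genes (73.1%). The same held for 1313 of 9139 other expressed protein-coding genes (14.4%) and for 1807 of all 12537 promoters matched (14.4%). EEF1A1, RPS6, RPL7A, EEF2 and NPM1 had such a word and GAPDH and FTL did not. TATAAA lay 40 to 16 bases before the start in 143 of 9205 expressed genes (1.55%), EEF2 among them. The word lay there in 304 of all 12537 promoters matched (2.4%). At 1000 TPM or more it did in 9 of 85 genes (10.6%), a class with promoters for 75.2% of its genes. The word was not particular to that class. It lay there in 67 of 1900 genes under 1 TPM but not silent (3.53%), with promoters for 70.2%. At 10 to 100 TPM it did in 47 of 5308 genes (0.89%), and among silent genes in 94 of 1432 (6.56%). A match is a description of letters, not a measured site. Promoters were found for 80.7% of ribosomal protein genes and 81.2% of expressed protein-coding genes, but for 69.3% of silent ones. A check of promoter letters in silent genes is therefore void, and their share is given as a number only. The shares in the classes with promoters for 75.2% and 70.2% are likewise numbers only.

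The driver genes of pancreatic cancer were mostly transcribed. SMAD4 (ENSG00000141646, GRCh37 chromosome 18, 48494410 to 48611415), the shared effector of TGF-beta and BMP signalling, had 19.3, 15.1, 17.4 and 18.1 TPM in libraries 1 to 4, highest in library 1 and lowest in library 2. CDKN2A was not analysed here.

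Of the 33 further driver genes with values, 29 were at or above 1 TPM, against 70.4% of listed protein-coding genes, and their median was 20.6 TPM. GNAS, the stimulatory G protein subunit, averaged 522 ± 67.6 TPM. The splicing factor SF3B1 averaged 343 ± 24.1 TPM, the transcription factor MYC 297 ± 28.1 TPM and the chromatin remodeller SMARCA4 215 ± 18.99 TPM (SD, n = 4 each). MYC had 329, 297, 302 and 260 TPM and stood far above its paralogues MYCL1 at 2.82 ± 0.488 TPM and MYCN at 0 counts in all libraries. Tumour suppressors at intermediate levels included STK11 and RB1 at 96.0 and 54.5 TPM, and ATM at 9.89 TPM.

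The 4 driver genes below 1 TPM were RNF43, SLIT2, GATA6 and TGFBR2. RNF43, a ubiquitin ligase that removes WNT receptors, and SLIT2, a guidance ligand, had 0 counts in each library, where 3 counts would be at most 0.0605 and 0.0528 TPM. GATA6, the endoderm factor whose loss marks the basal-like state, had 3, 0, 6 and 0 counts. TGFBR2 (ENSG00000163513, GRCh37 chromosome 3, 30647994 to 30735634), the receptor that binds TGF-beta, had 4, 0, 16 and 4 counts, or 0.116 ± 0.124 TPM. Its partner receptor TGFBR1 averaged 12.2 TPM and the downstream effectors SMAD2 and SMAD3 averaged 21.8 and 50.8 TPM. In each library the lowest of these and SMAD4 was above TGFBR2. TGFBR2 was singled out after its values were seen.

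**Figure D2:**
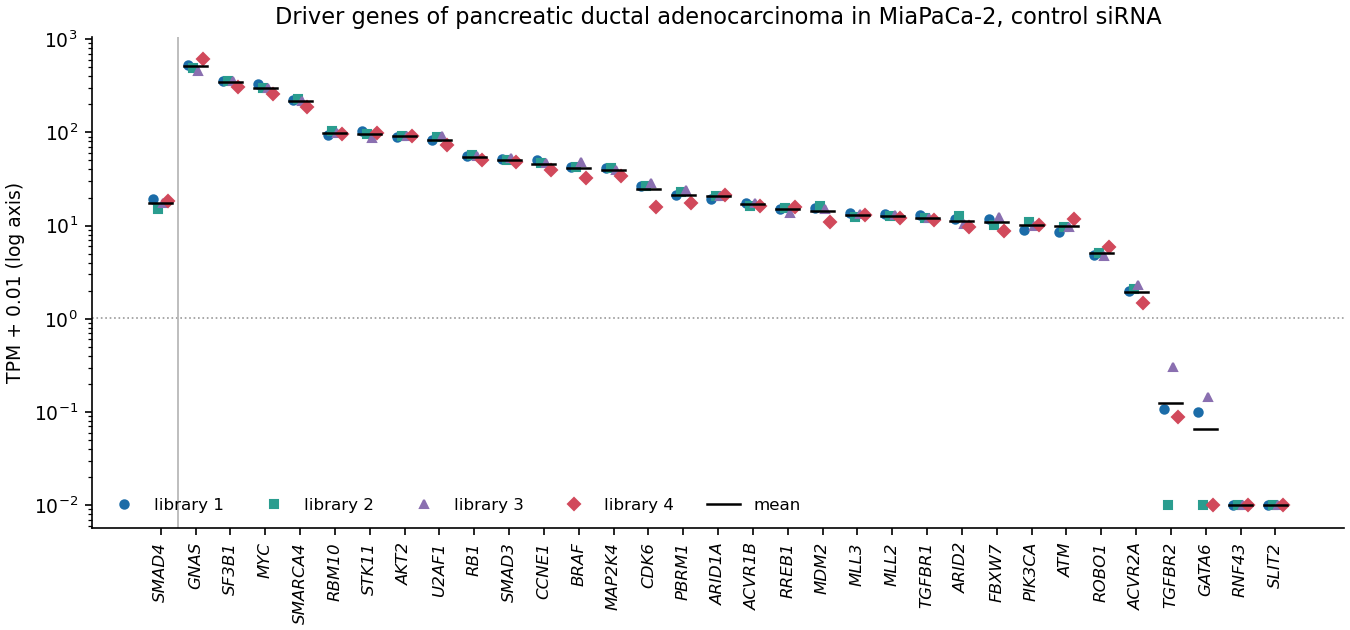
TPM + 0.01 on a log axis for SMAD4 (left of the vertical line) and 32 further driver genes, with 1 marker per control siRNA library and a bar at the mean. The dotted line is 1 TPM. TGFBR2 and GATA6 rest on a few reads and are at 0 in some libraries, and RNF43 and SLIT2 sit at 0 in all libraries.

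Of the RAS GTPases, which relay growth factor signals, HRAS had 108, 102, 108 and 94.0 TPM and NRAS had 96.9, 102, 102 and 76.0 TPM. Their ranges overlapped, and both were lowest in library 4. Downstream, BRAF averaged 41.2 TPM, and the kinase AKT2, which is amplified in some of these tumours, averaged 90.8 ± 0.864 TPM, above AKT1 at 69.2 ± 5.23 TPM.

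MTAP, which lies beside CDKN2A and is often lost with it, was silent. MTAP (ENSG00000099810, GRCh37 chromosome 9, 21802542 to 21932738), the enzyme that salvages methionine and adenine from methylthioadenosine, had 0 counts in each of the 4 libraries, where 3 counts would be at most 0.0551 TPM. MTAP was 1 of 6 neighbouring listed protein-coding genes with 3 or fewer counts in every library. They were SLC24A2, FOCAD, MTAP, ELAVL2, IZUMO3 and TUSC1, spanning 6.16 Mb from 19515978 to 25678856. FOCAD, which encodes focadhesin, also had 0 counts in each library, allowing at most 0.0554 TPM. The other members had a few reads: SLC24A2 2, 0, 0 and 0 counts, ELAVL2 2, 0, 0 and 3. IZUMO3 had 0, 0, 0 and 1 counts and TUSC1 0, 0, 0 and 3. The nearest listed protein-coding genes on both sides were transcribed. On one side RPS6, a ribosomal protein, averaged 2449 ± 86.8 TPM and ACER2, the nearest, 2.78 ± 0.621 TPM. On the other side CAAP1, PLAA and IFT74 averaged 22.8 ± 1.16, 38.8 ± 5.01 and 24.97 ± 2.59 TPM (SD, n = 4 each). Farther out not all genes were transcribed: SH3GL2 and FAM154A beyond RPS6, and TEK and MOB3B beyond IFT74, were silent too.

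Across the genome 1632 runs of silent listed protein-coding genes were found, 1315 of them of 1 gene, and 12.8% of listed protein-coding genes were silent. The run with MTAP was 1 of 6 with at least 6 genes. The longest, 8 genes on chromosome 4, began with the fibrinogen genes FGB, FGA and FGG, which are known from liver. ELAVL2 encodes an RNA-binding protein of neurons and IZUMO3 a protein of sperm. Whether a gene is missing from the genome or not transcribed cannot be told apart in these counts. The run and its flanking genes were singled out after their values were seen.

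**Figure D3:**
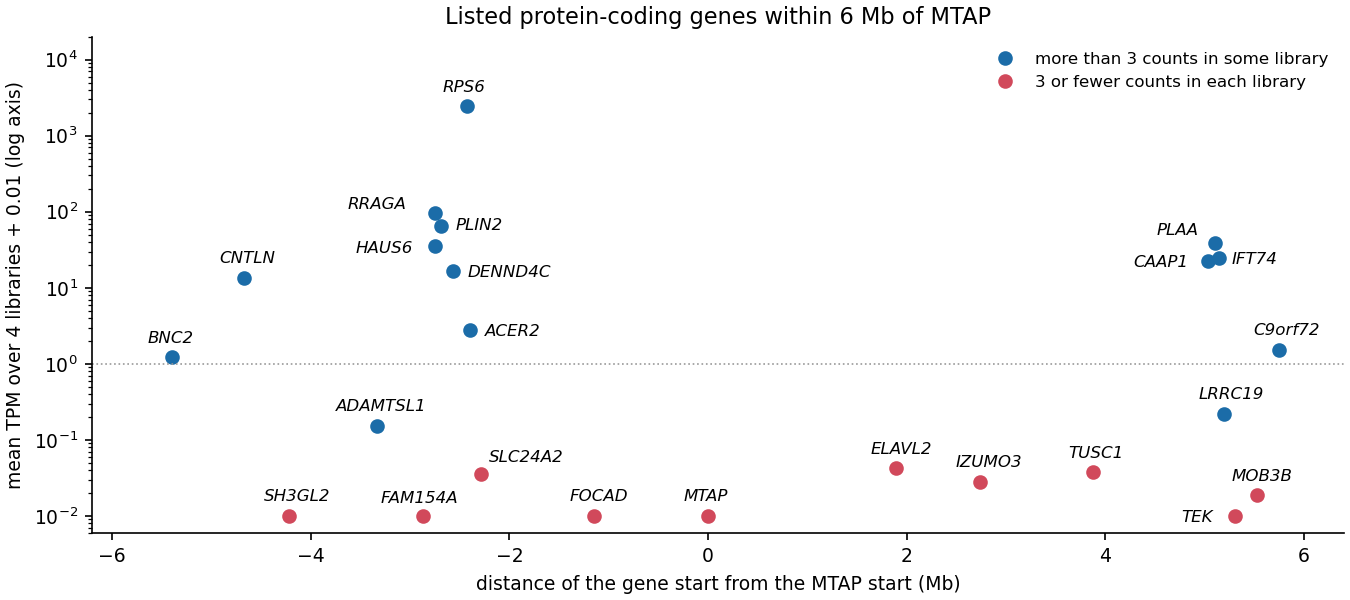
Mean TPM + 0.01 on a log axis for each listed protein-coding gene within 6 Mb of the start of MTAP, against the distance of its start from that of MTAP in Mb. Red points had 3 or fewer counts in each library, and the dotted line is 1 TPM. Each of the 6 points from SLC24A2 to TUSC1 is red, and RPS6 at 2449 TPM and CAAP1 at 22.8 TPM lie outside. Farther out SH3GL2, FAM154A, TEK and MOB3B are red as well.

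Genes of the SWI/SNF complex, a chromatin remodeller in which SMARCA4 and SMARCA2 are alternative ATPases and ARID1A and ARID1B alternative large subunits, were unevenly expressed. This list was added after values were seen. Of its 25 members 22 were at or above 1 TPM, against 70.4% of listed protein-coding genes, and the median was 39.1 TPM. The core subunit SMARCB1 averaged 298 ± 5.78 TPM. Of the ATPases, SMARCA4 had 224, 229, 220 and 187 TPM and SMARCA2 had 1.26, 0.978, 1.22 and 1.54 TPM. Of the ARID1 subunits, ARID1A averaged 20.6 ± 0.807 TPM, with 19.5, 20.6, 20.96 and 21.4 TPM, and ARID1B was silent with 0, 0, 2 and 1 counts. In each library SMARCA4 stood above SMARCA2 and ARID1A above ARID1B. Mutation of SWI/SNF genes is common in pancreatic cancer. The third gene below 1 TPM besides ARID1B and the neural subunit ACTL6B was DPF3 at 0.308 TPM.

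Markers of normal pancreatic cell types were mostly below 1 TPM apart from some ductal genes. Of 7 acinar genes with values only CEL, a lipase, reached 1 TPM, against 70.4% of listed protein-coding genes, at 2.07 ± 0.737 TPM, and the list had a median of 0.0734 TPM. Of 9 islet genes PAX6 averaged 6.74 ± 0.385 TPM and MAFA 2.65 ± 1.07 TPM, while IAPP and ISL1 had no more than 3 counts in any library. Trypsinogens, insulin and glucagon were not analysed here. Of the ductal genes 6 of 11 were at or above 1 TPM, below the 70.4% of listed protein-coding genes, and a few were high. KRT19, the duct keratin, had 406, 411, 372 and 515 TPM, and SOX9, the duct and progenitor transcription factor, had 166, 157, 160 and 167 TPM. ANXA4 averaged 29.0 ± 3.78 TPM. Other duct genes were low, with the keratin KRT7 at 0.128, 0.257, 0.431 and 0.0510 TPM and SLC4A4 and SPP1 at or below 3 counts throughout. MUC1, a membrane mucin, averaged 14.5 ± 12.2 TPM, with 8.63, 9.38 and 7.23 TPM in libraries 1 to 3, a mean of 8.41 TPM, and 32.7 TPM in library 4.

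Epithelial genes were expressed in part. Simple-epithelium keratins were among the highest genes: KRT8 had 2173, 2162, 2120 and 1509 TPM and KRT18 had 918, 930, 902 and 594 TPM, both lowest in library 4. The gene bodies of KRT8 and KRT18 overlap in the table. Several junctional genes that mark epithelia had few or no reads. CDH1, which encodes E-cadherin, had 0, 0, 0.0689 and 0 TPM, and EPCAM had 0 counts in each library. CLDN7, ST14 and RAB25, further genes of epithelial junctions and surfaces, were silent as well, as was GRHL3, a factor that maintains epithelia. In all 11 of 24 epithelial genes with values were at or above 1 TPM, with a median of 0.384 TPM, against 70.4% and 10.8 TPM over listed protein-coding genes.

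Some epithelial genes were nonetheless well expressed. The desmosome and plaque genes PKP3 and DSP averaged 68.5 ± 5.45 and 9.59 ± 0.822 TPM, and the ETS factor EHF, active in glandular epithelia, had 120, 118, 115 and 122 TPM. Of claudins, the strands of tight junctions, 5 of 15 listed genes were at or above 1 TPM, against 70.4% of listed protein-coding genes. The highest was CLDN11, a claudin of myelin and testis, with 710, 732, 706 and 635 TPM, far above CLDN4 at 48.0 ± 13.5 TPM. Of 25 keratins 9 were expressed, beside the same share, and KRT80 at 160 ± 7.69 TPM came next after KRT19. MUC1 was the single expressed gene of 10 listed mucins, the proteins of mucus and glycocalyx.

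Mesenchymal genes, too, were expressed in part. VIM, the mesenchymal intermediate filament, had 1673, 1768, 1772 and 1760 TPM. ZEB1, the repressor of E-cadherin, had 34.8, 36.7, 34.6 and 25.8 TPM, while its paralogue ZEB2 had 0, 0, 0 and 2 counts. SNAI1, a repressor of epithelial genes, averaged 5.16 ± 0.799 TPM. CDH2, which encodes N-cadherin, had 1, 0, 0 and 0 counts, and FN1, fibronectin, averaged 0.608 ± 0.226 TPM. Of 13 mesenchymal genes with values 6 were at or above 1 TPM, with a median of 0.842 TPM, against 70.4% and 10.8 TPM over listed protein-coding genes.

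The cadherin family as a whole was low. Of 18 listed cadherins 4 reached 1 TPM, against 70.4% of listed protein-coding genes, and the highest was CDH24 at 11.7 ± 2.80 TPM. CDH5, the cadherin of endothelium, averaged 2.85 ± 0.497 TPM and CDH10 averaged 2.11 ± 0.806 TPM. Clustered protocadherins were quieter still, with 2 of 46 genes at or above 1 TPM. One of them, PCDHA4, averaged 1.13 TPM, or 0.841 TPM without library 4, which leaves 1 of 46. PCDHGC3, at 34.9 ± 5.95 TPM, overlaps the other genes of its cluster in the table, so its reads cannot be assigned to it alone.

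Genes of published tumour subtypes were next described list by list. Of the classical list of Moffitt, 1 of 11 genes with values was at or above 1 TPM, against 70.4% of listed protein-coding genes. It was LYZ, lysozyme, with 9.70, 9.93, 10.1 and 6.03 TPM, and the list had a median of 0.102 TPM. VSIG2 of this list lay just under the threshold at 0.953 TPM and above it without library 3, at 1.01 TPM, or without library 4, at 1.05 TPM, which makes the count 2 of 11. Of the basal-like list of the same authors 8 of 13 were expressed, with a median of 2.18 TPM. The long noncoding RNA UCA1 had 123, 125, 127 and 132 TPM and the glucose transporter SLC2A1 122, 110, 121 and 109 TPM. The basal keratin KRT15 averaged 46.2 ± 40.7 TPM, with 28.5, 25.5 and 23.6 TPM in libraries 1 to 3, a mean of 25.9 TPM, and 107 TPM in library 4. FAM83A and FGFBP1 of this list were silent. The list's 8 of 13 stand beside 70.4% of all listed protein-coding genes.

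Of the quasimesenchymal list of Collisson 14 of 18 genes were expressed, near the 70.4% of listed protein-coding genes, with a median of 28.9 TPM beside 10.8 TPM over listed protein-coding genes. CKS2, a cell cycle protein, averaged 485 ± 58.0 TPM. NT5E, the ecto-nucleotidase CD73, had 507, 524, 569 and 315 TPM, SLC16A1, a lactate transporter, had 243, 252, 241 and 244 TPM, and HMMR, a hyaluronan receptor of mitotic cells, had 189, 197, 192 and 118 TPM. Below 1 TPM were KRT14, which was silent, and PAPPA, LOX and AIM2 at 0.0697, 0.202 and 0.406 TPM. The classical list of the same authors had 5 of 12 genes at or above 1 TPM, against 70.4% of listed protein-coding genes, and a median of 0.230 TPM. GPRC5A, an orphan receptor, averaged 236 ± 25.3 TPM and was the single gene of that list above 10 TPM, while CEACAM5 and S100P were silent. Not analysed here were 13 further genes of the classical list of Moffitt, 12 of the basal-like, 10 of the classical list of Collisson and 2 of the quasimesenchymal list, so the lists are covered unequally. No test between lists was made.

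**Figure D4:**
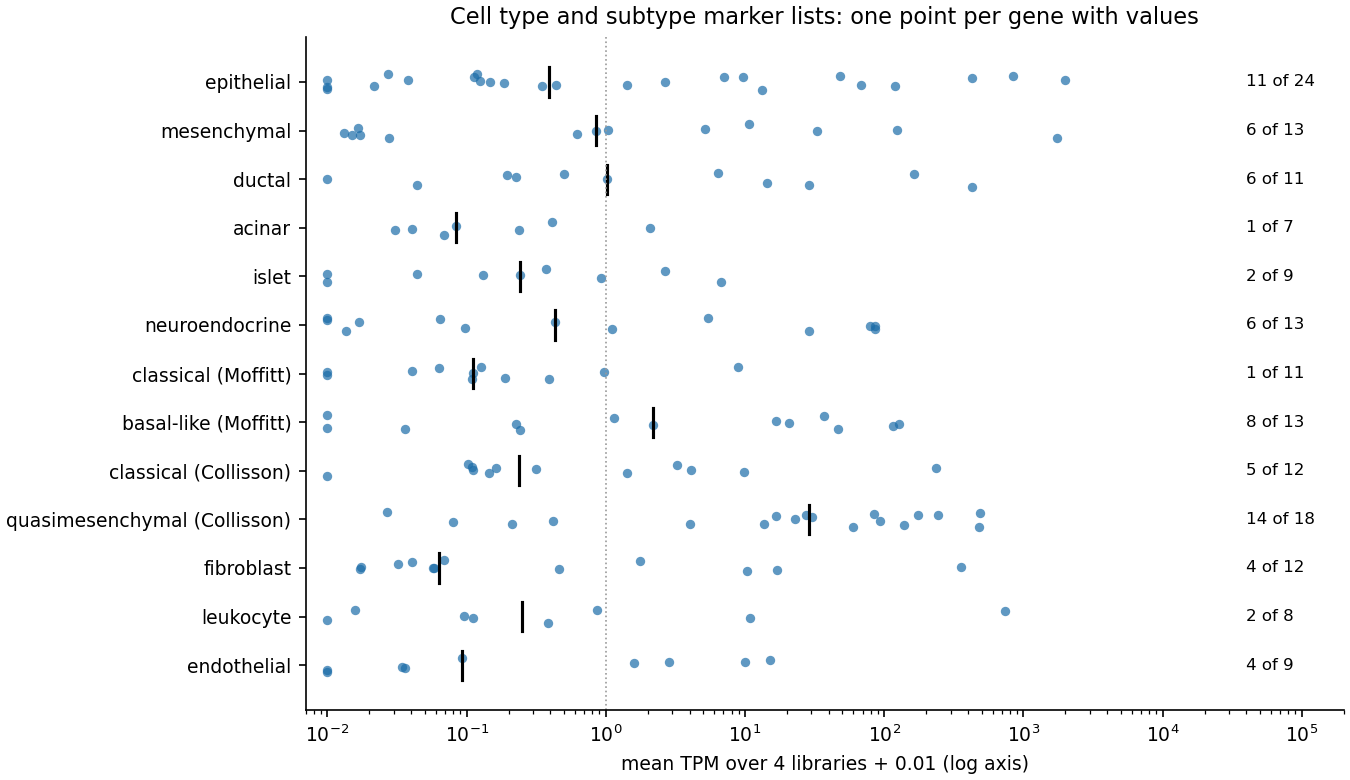
Mean TPM over 4 control siRNA libraries + 0.01 on a log axis, 1 point per gene with values in 13 marker lists, with a black bar at the list median and the number of genes at or above 1 TPM on the right. The dotted line is 1 TPM. The quasimesenchymal list has its median at 28.9 TPM and the classical list of Moffitt at 0.102 TPM. Vertical scatter within a list has no meaning.

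Neuroendocrine genes varied widely. Several markers used in pathology were silent: CHGA, chromogranin A, had 0 counts in each library and NCAM1 and SSTR2 no more than 3 in any. SYP, synaptophysin, averaged 5.42 ± 1.34 TPM. Against this, NTSR1, the neurotensin receptor, had 95.6, 87.7, 88.9 and 72.7 TPM, and SCG2, a granin, had 80.9, 84.0, 78.2 and 100 TPM. ENO2, the neuronal enolase, averaged 78.8 ± 18.4 TPM and SYT1, a synaptic vesicle protein, 28.9 ± 2.18 TPM. In all 6 of 13 genes with values were at or above 1 TPM, with a median of 0.424 TPM, beside 70.4% and 10.8 TPM over listed protein-coding genes.

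Transcription factors that guide endoderm and pancreas gave a mixed picture in which 14 of 18 genes with values were at or above 1 TPM, near the 70.4% of listed protein-coding genes, but with a median of 2.07 TPM. Besides SOX9, TP63, the master factor of squamous and basal cells, had 96.0, 97.3, 88.5 and 92.2 TPM. KLF4 averaged 47.8 ± 8.69 TPM, MNX1 29.2 ± 2.13 TPM and GATA4 25.4 ± 1.73 TPM. PDX1, a central pancreatic factor, was near the threshold with 1.71, 0.540, 0.705 and 1.07 TPM. Its side of 1 TPM depended on single libraries, since its mean was 0.773 TPM without library 1 and 0.985 TPM without library 4. FOXA2, a pioneer factor of endoderm, had 0 counts in each library. Among GATA factors GATA2, better known from blood, averaged 55.6 ± 4.90 TPM and GATA6 had no more than 6 counts in any library.

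Other factor families are given beside the 70.4% of listed protein-coding genes at or above 1 TPM. FOXM1, which drives mitotic genes, led the forkhead factors at 187 ± 20.9 TPM with 16 of 34 expressed. Of the KLF and SP factors 17 of 27 were expressed, KLF6 at 125 ± 9.91 and KLF2 at 98.8 ± 15.3 TPM with overlapping ranges, and EHF led the ETS factors, of which 18 of 24 were expressed. Of 38 nuclear receptors with values 22 were at or above 1 TPM. NR2F1 and NR2F2, orphan receptors of embryonic patterning, averaged 163 ± 32.4 and 89.7 ± 3.79 TPM, and NR2F6 91.2 ± 13.8 TPM. The glucocorticoid receptor NR3C1 averaged 35.0 ± 2.32 TPM and the vitamin D receptor VDR, studied as a target in pancreatic stroma, 0.95 ± 0.196 TPM, or 1.05 TPM without library 2.

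HOX genes, which encode position along the body axis in 4 clusters, were expressed mainly from the HOXB cluster. HOXB8 had 320, 277, 287 and 353 TPM and HOXB9 had 168, 151, 142 and 159 TPM, and no other HOX gene reached either in any library. HOXB2 followed at 44.7 ± 3.42 TPM, then HOXB6 at 34.7 ± 4.97, HOXB5 at 28.1 ± 6.13 and HOXB7 at 21.2 ± 1.25 TPM (SD, n = 4 each). The ranges of HOXB2 and HOXB6 overlapped, as did those of HOXB6 and HOXB5, and HOXB7 lay below HOXB5 in each library. At the far end of the cluster HOXB13 averaged 6.36 ± 2.62 TPM, with 5.29, 5.39 and 4.53 TPM in libraries 1 to 3 and 10.2 TPM in library 4. HOXB7 overlaps HOXB8 and HOXB9 in the table, and HOXB3 overlaps HOXB4, HOXB5 and HOXB6, so reads of these neighbours may be shared or lost.

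In the other clusters levels were lower. HOXA3 averaged 15.3 ± 2.92 TPM and HOXA2, HOXA11 and HOXA13 averaged 3.06, 1.68 and 1.61 TPM, while HOXA10 had 0 counts in each library. HOXC8 led its cluster at 5.46 ± 0.735 TPM, and HOXC10 had 0, 0, 0 and 1 counts. The gene body of HOXC8 overlaps those of HOXC5 and HOXC6, so their reads, too, may be shared or lost. Of the HOXD cluster only HOXD12 had values, at 1, 1, 0 and 2 counts. In all 17 of 22 HOX genes with values were at or above 1 TPM, near the 70.4% of listed protein-coding genes, and 17 further HOX genes were not analysed here.

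**Figure D5:**
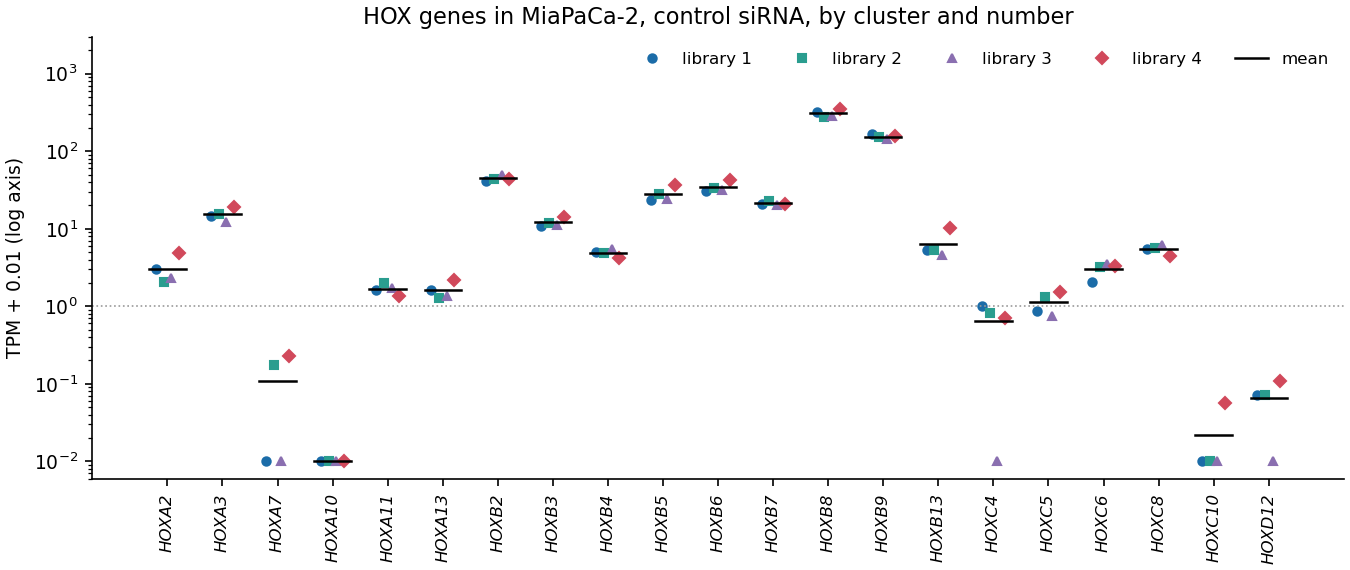
TPM + 0.01 on a log axis for 21 HOX genes with values, ordered by cluster and number, with 1 marker per control siRNA library and a bar at the mean. The dotted line is 1 TPM. HOXB8 at 309 TPM and HOXB9 at 155 TPM stand above the others, and HOXA10 lies at 0 in all libraries.

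Of 53 receptor tyrosine kinases with values 29 were at or above 1 TPM, against 70.4% of listed protein-coding genes, with a median of 1.66 TPM. EPHA2 had 335, 322, 341 and 238 TPM, above every other kinase of the list in each library. EPHA4 and EPHB4 averaged 98.5 ± 3.25 and 83.8 ± 3.61 TPM, and the collagen receptor DDR2 80.1 ± 12.3 TPM. AXL, associated with drug resistance, had 79.7, 77.5, 70.3 and 50.8 TPM. EGFR had 65.2, 66.3, 67.0 and 62.9 TPM and ERBB2 averaged 64.3 ± 10.4 TPM, their ranges overlapping, while MET averaged 8.69 ± 1.62 TPM and ERBB4 had 0 counts. Of 13 silent kinases, beside 12.8% of listed protein-coding genes that were silent, several belong to blood, vessel or nerve, among them FLT3, KDR, TEK and NTRK2.

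Of the 23 surface antigens followed as targets in pancreatic cancer that had values, 7 were silent, beside 12.8% of listed protein-coding genes. MUC4, CEACAM5, EPCAM, PSCA and PROM1 had 0 counts in each library and MSLN, mesothelin, no more than 3. At or above 1 TPM were 11 antigens, against 70.4% of listed protein-coding genes. CD44, the hyaluronan receptor, had 625, 606, 632 and 688 TPM, NT5E stood at 479 ± 112 TPM and CD276, an immune checkpoint ligand, at 46.6 ± 4.26 TPM. CD274, which encodes PD-L1, had 1.27, 0.648, 1.31 and 1.55 TPM.

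Secreted factors were led by growth factors and neutrophil-attracting chemokines. HDGF, the hepatoma-derived growth factor, averaged 955 ± 125 TPM. CXCL1 had 262, 261, 284 and 206 TPM, CXCL8, listed under its older name IL8, had 201, 184, 186 and 145 TPM, and CXCL5 averaged 79.4 ± 2.61 TPM. The macrophage factor CSF1 averaged 82.5 ± 10.1 TPM, PDGFC 61.4 ± 4.65 TPM, VEGFC 52.7 ± 3.43 TPM and LIF, a cytokine, 37.5 ± 2.60 TPM. CXCL12, CCL2, HGF and PTN were silent, 4 of 40 factors with values beside 12.8% of listed protein-coding genes. Of 40 secreted factors with values 22 were at or above 1 TPM, against 70.4% of listed protein-coding genes.

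Collagen genes were unevenly expressed. COL1A2, a chain of type I collagen, had 327, 307, 285 and 510 TPM, whereas COL1A1, the chain it pairs with, had 0.251, 0.435, 0.287 and 0.838 TPM. COL5A2 averaged 418 ± 18.8 TPM and overlapped COL1A2, which was the higher of them in library 4. Of 39 listed collagens 15 were at or above 1 TPM, against 70.4% of listed protein-coding genes. COL17A1, of hemidesmosomes, averaged 85.7 ± 10.3 TPM, and COL6A1 was 158 TPM in library 4 and 78.3 to 80.2 TPM in the others.

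Markers of other cells were mostly low or silent. Of 12 fibroblast genes 4 were silent, DCN, LUM, PDGFRA and FAP, beside 12.8% of listed protein-coding genes. Of the same 12 genes 4 reached 1 TPM, against 70.4% of listed protein-coding genes. The summed level of the list was 387 ± 114 TPM, most of it COL1A2. Of 8 leukocyte genes with values 2 reached 1 TPM and 2, CD68 and LCP1, were silent, beside the same 2 shares. SRGN, a proteoglycan of secretory granules, had 753, 802, 767 and 648 TPM, and the summed level of the list was 755 ± 57.6 TPM. CD14 averaged 10.9 ± 8.26 TPM, with 6.74, 6.20 and 7.34 TPM in libraries 1 to 3, a mean of 6.76 TPM, and 23.3 TPM in library 4. Of 9 endothelial genes 4 reached 1 TPM and 3, KDR, TEK and TIE1, were silent, beside 70.4% and 12.8% of listed protein-coding genes. ROBO4 and EMCN averaged 15.1 ± 3.61 and 9.91 ± 2.83 TPM and CDH5 and ESAM 2.85 and 1.58 TPM, with 29.5 ± 1.02 TPM for the list. The part of other cells in any result was not tested. In bulk RNA a few cells of another type and a low level in every cell cannot be told apart.

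In several metabolic families 1 gene supplied nearly all transcripts. LDHA, the lactate dehydrogenase of fermenting tissue, had 1589, 1608, 1574 and 1465 TPM. LDHB (ENSG00000111716, GRCh37 chromosome 12, 21788276 to 21910791), its partner in oxidative tissue, had 5, 0, 3 and 5 counts. In the mean over libraries LDHA held 99.9% ± 0.0512 of the summed TPM of 5 lactate dehydrogenase genes and LDHB 0.0133% ± 0.0104 (SD, n = 4 each). PKM was likewise the single expressed pyruvate kinase gene, since PKLR had no more than 3 counts. ALDOA held 99.5% of aldolase and ENO1 98.1% of enolase transcripts. ALDOC averaged 10.4 ± 7.95 TPM, and 6.47 TPM without library 4.

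Other steps were shared between genes. Among hexokinases HK1 held 60.3% ± 2.77 and HK2 36.2% ± 2.63. PFKP held 52.6% ± 2.73 of phosphofructokinase transcripts and SLC2A1 56.7% ± 6.58 of 12 glucose transporter genes. Cyclin D transcripts came from CCND1 at 59.0% ± 2.20 and CCND3 at 41.0% ± 2.20, with CCND2 below 0.1 TPM. HMGA1, the chromatin protein of embryonic and tumour cells, had 1507, 1486, 1508 and 1005 TPM, and its paralogue HMGA2 had 3, 0, 6 and 0 counts. IGF2BP3 and IGF2BP2, fetal RNA-binding proteins, averaged 196 ± 13.6 and 164 ± 18.9 TPM, while IGF2BP1 averaged 0.0427 TPM. Of annexins ANXA1 held 47.8% and ANXA2 30.9%, and ANXA3 had 0 counts.

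The LDHA and LDHB promoters are shown because these paralogues differ so widely in level. They come from RefSeq on build GRCh38.p14, 150 bases before to 20 bases from the start on the gene strand, with each CG in capitals.
LDHA, chr11:18394413-18394582, plus strand: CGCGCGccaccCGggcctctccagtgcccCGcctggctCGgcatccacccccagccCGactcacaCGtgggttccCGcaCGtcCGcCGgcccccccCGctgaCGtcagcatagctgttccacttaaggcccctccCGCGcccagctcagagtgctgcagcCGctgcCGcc
LDHB, chr12:21657823-21657992, minus strand: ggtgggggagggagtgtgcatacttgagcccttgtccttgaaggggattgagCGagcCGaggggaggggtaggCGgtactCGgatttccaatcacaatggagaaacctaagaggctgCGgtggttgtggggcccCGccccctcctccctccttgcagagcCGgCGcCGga

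The printed stretch holds 18 CG in LDHA and 9 in LDHB. Over the full 300 bases around the start the ratio of observed to expected CG was 0.825 in LDHA and 0.549 in LDHB. Its median was 0.853 over the 9205 expressed genes with a promoter sequence. Over the 1900 such genes under 1 TPM but not silent, the class of LDHB, its median was 0.593. Promoters were found for 70.2% of that class. Whether the ratio bears on the level of a gene was not tested. Methylation of these sites was not measured in these libraries.

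Of the named long noncoding RNAs, GAS5, a host of small nucleolar RNAs, averaged 278 ± 28.1 TPM and DANCR averaged 237 ± 25.7 TPM. Of 14 on this list with values 11 reached 1 TPM, against 52.4% of listed genes of all biotypes. MALAT1 and NEAT1, nuclear-retained RNAs, averaged 60.2 ± 6.79 and 27.0 ± 10.1 TPM. Of genes annotated as lincRNA, GS1-600G8.5 had 266, 279, 259 and 440 TPM, and XXyac-YX65C7_A.3 averaged 244 ± 107 TPM, with an overlapping range. LINC00657 averaged 163 ± 10.1 TPM and lay below both in each library. MEG3 was silent.

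Sensory families and globins were low. None of 23 listed olfactory receptor genes had more than 3 counts in any library, where 12.8% of listed protein-coding genes were silent. Of 4 globins 0 reached 1 TPM, against 70.4% of listed protein-coding genes. Of 13 taste receptors only TAS1R3 did, beside the same share, at 1.72 ± 0.516 TPM, or 2 of 13 without library 1. Of 11 listed MAGE genes, a family known from germline and tumours, 5 were expressed, against 70.4% of listed protein-coding genes, the highest of them members with broad somatic expression. MAGEF1 averaged 97.0 ± 4.07 TPM and MAGED2 45.1 ± 10.4 TPM. PRAME, an antigen of testis and tumours, had 21.02, 22.3, 15.4 and 23.8 TPM. TERT, the catalytic subunit of telomerase, had 2.07, 1.96, 1.96 and 1.85 TPM.

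Among the 6447 protein-coding genes with at least 20 TPM, the lowest coefficients of variation were those of TTLL4, SFXN5, EIF2AK1, GPBP1 and VPS4A. They were 0.313% to 0.467%, less than counting error alone would give at the counts of these genes. As the lowest of 6447 values, each from 4 libraries, they do not mark these genes as especially stable. TTLL4, a tubulin glutamylase, had 39.5, 39.4, 39.3 and 39.3 TPM, and EIF2AK1, the haem-regulated kinase of translation, had 165, 166, 167 and 166 TPM. The least even were FOS, LGALS3BP, KRT15, TLE2 and TSPAN1, each highest in library 4. FOS, an immediate early gene, had 7.09, 6.99, 8.56 and 100 TPM. LGALS3BP, a secreted lectin-binding glycoprotein, had 22.1, 18.2, 16.02 and 128 TPM. TLE2, a transcriptional corepressor, had 28.3, 28.4, 24.3 and 105 TPM, and TSPAN1 16.3, 15.9, 9.77 and 48.5 TPM. Without library 4 the means of FOS, LGALS3BP, TLE2 and TSPAN1 were 7.54, 18.8, 27.0 and 14.01 TPM.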

How the data were processed

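Poly-A purified RNA of 4 MiaPaCa-2 libraries with control siRNA was sequenced. The deposited table holds gene counts and FPKM values made by the authors, with fastp, HISAT2 2.0.5, featureCounts and GRCh37 (hg19) named in the submitters' processing notes. Neither an annotation release nor a strand setting for counting is given in the sources used here. Reads of genes that overlap, antisense partners included, may therefore be shared or lost. A further 12 columns of per-sample values were not used. The deposited FPKM values were recomputed from counts and gene lengths to within a relative difference of 4.95e-12 and served as an alternative.

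TPM was computed per library from the deposited counts and gene lengths (Python 3.11.15, pandas 2.3.3), a step tested on simulated data. Of 48162 entries in the table, 22217 without a name had no reads and were left out. In 26 names turned into dates by a spreadsheet, the symbol was restored from the gene ID. Total counts were 24458665 to 32627983 per library. A gene was called expressed at a mean of 1 TPM and silent at 3 or fewer counts in each library.

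The 4 libraries described and the marker and pathway lists were chosen with earlier results of these data known. Genes named are the 25 highest, the core drivers and the 4 highest and 4 lowest further drivers. They are also up to 4 highest and 4 silent members of each list, all HOX genes, the 3 highest of each family, the 5 most and 5 least variable genes with at least 20 TPM, the 8 highest long noncoding RNAs and expressed genes near MTAP. Some genes of these lists are not reported here. Further list members and neighbours in the text were chosen after their values were seen. Alternatives were the TMM factors of edgeR 4.0.16, the size factors of DESeq2 1.42.0, other thresholds, the deposited FPKM, TPM without mitochondrial genes and each library left out, the last for gene families added after seeing the data. Promoters are from RefSeq on GRCh38.p14 and were matched by name for 77.8% of listed protein-coding genes. Of the 12537 matched genes 3546 had more than 1 start, and only the first one listed was used. Among the genes printed, NPM1 and LDHA had 2 starts each.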

Additional observations from a re-analysis of the deposited data

Results flagged for a closer look

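A library stood far from the other 3 in 33 of 185 values tested, namely levels of named genes of at least 1 TPM, the mitochondrial share and the number of expressed genes, by Dixon's test for 4 values. Chance alone gives such a gap in about 1 in 20 groups. Over the 6447 protein-coding genes with at least 20 TPM it was found in 851 (13.2%), in 754 of them at library 4. Of the 33 values 32 concern library 4, in 16 as the highest and in 16 as the lowest value. Among the 33 are FOS, LGALS3BP, KRT15, TLE2 and TSPAN1, which were named for their wide spread over these same libraries. All values tested come from the same 4 libraries and are not independent. The share flagged is therefore a description, not a test against the rate of 1 in 20. The cause was not tested.

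Library 4 had 14276 genes at or above 1 TPM, while the others had 13450 to 13475. Upward, library 4 stood apart in genes of varied function. FOS had 100.2 TPM in library 4, LGALS3BP 128, KRT15 107, TLE2 105, TSPAN1 48.5, MUC1 32.7 and CD14 23.3 TPM. Matrix and junction genes above the other libraries were COL6A1 at 158 TPM, LAMB2 at 50.6 TPM and CLDN4 at 68.1 TPM. S100A4 was high at 2327 TPM, HOXB13 at 10.2 TPM and the noncoding RNAs GS1-600G8.5, XXyac-YX65C7_A.3 and GAS5 at 440, 403 and 319 TPM.

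Downward, library 4 was apart in the chaperones NPM1, HSP90AA1, HSP90AB1 and HSPA8, at 3920, 3197, 3771 and 2559 TPM. The keratins KRT8 and KRT18 stood at 1509 and 594 TPM. The glycolytic enzymes ENO1 and HK2 stood at 3870 and 68.3 TPM. Other genes low in library 4 were TMSB10 at 4714 TPM, HMGA1 at 1005 TPM, ANXA2 at 725 TPM, SF3B1 at 307 TPM, HMMR at 118 TPM, CAV1 at 82.9 TPM, COL17A1 at 70.4 TPM and LYZ at 6.03 TPM. VIM was the exception, with library 1 apart at 1673 TPM, below 1760 to 1772 TPM in the others.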

How the results depend on the processing

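The 4 libraries form 1 group. No paired analysis was possible because no second group was compared. The number of genes with no or almost no reads, 6460 at 3 or fewer counts in each library, was 3035 at 0 counts and 9873 at under 10 counts. The mitochondrial share was 6.06% of TPM in place of 2.15% of counts. The lowest Pearson r between libraries, 0.985 on log2(TPM + 1), was 0.961 on log2(TPM + 0.1) and 0.973 over expressed genes alone. With each library left out in turn it was 0.985 to 0.990, and the median coefficient of variation was 4.56% to 9.21%. The 0.990 and the 4.56% came from leaving out library 4, and the 9.21% from leaving out library 1.

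The number of genes at or above 1 TPM, 13606, was 13379 to 13695 with a library left out, 11438 on deposited FPKM, 15325 at 0.5 TPM and 10230 at 5 TPM. All of these stayed within 1.5 times the reported number. The number of genes holding 50% of TPM was 497 to 509 with a library left out and 602 without mitochondrial genes. Rescaling by TMM or DESeq2 factors moved none of the 274 named genes across 1 TPM, and leaving out mitochondrial genes moved VDR and VSIG2. On the FPKM scale 11 of them crossed it, among them SMARCA2, TERT, PDX1 and CEL. In these libraries 1 FPKM was worth 2.663 to 2.775 TPM, so each count on FPKM rests on a stricter threshold. Of 42 gene lists, the count of expressed members moved by more than 1.5 times in 8 at 5 TPM, in 1 at 0.5 TPM and in 4 on FPKM. In 1, the classical list of Moffitt, it also moved without library 3, without library 4 and without mitochondrial genes, each time to 2 of 11. Of 20 gene families, a check added after seeing the data, it moved in 1 without library 1 (taste receptors) and in 1 without library 4 (clustered protocadherins). Depth limits what silent means, since 3 counts were worth 0.0920 to 0.123 CPM.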

Other observations

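Some gene groups outside the sections above were also described. Laminins, trimeric proteins of basement membrane, had 6 of 11 listed genes at or above 1 TPM, against 70.4% of listed protein-coding genes, led by LAMC1 at 78.2 ± 2.33 TPM, against LAMB1 at 9.01 ± 0.734 TPM. LAMB2 had 26.7, 28.2, 30.1 and 50.6 TPM in libraries 1 to 4. Of 14 listed SOX factors 7 were expressed, and after SOX9 came SOX12 at 49.2 ± 5.96 TPM and SOX13 at 34.1 ± 1.81 TPM. Of the caveola genes, PTRF, which encodes cavin, held 74.0% of the summed TPM of 4 genes. CAV1, the main coat protein, had 156, 154, 166 and 82.9 TPM, lowest in library 4.

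Apart from the run with MTAP, the other runs of at least 6 silent listed protein-coding genes lay on chromosomes 4, X, 2, 12 and 19. The run on chromosome X spanned 8.89 Mb and held PCDH11X, NAP1L3, FAM133A, DIAPH2, TSPAN6 and SRPX2. The run on chromosome 12 held ART4, MGP, ARHGDIB, PDE6H, RERG and PTPRO within 0.772 Mb, and that on chromosome 2 held FIGN, COBLL1, SCN3A, SCN2A, CSRNP3 and GALNT3 within 2.20 Mb. These runs were listed by length after the values were seen, and genes missing from the list of named genes could break or lengthen a run.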
